A study of Homo sapiens with 4 samples.

Results

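The extracellular matrix genes of the melanoma line A2058 and the receptor genes through which cells hold that matrix are described here across 4 cultures. Members were chosen by symbol among probes that the array's annotation assigns to 1 gene. They are symbols that start with COL, LAMA, LAMB, LAMC, ITGA or ITGB followed by a digit, and ITGAV, ITGAE and FN1. The rule took 137 of 30112 probes and 82 of 20045 genes. They comprised 43 collagen genes, 10 laminin genes, 22 integrin genes, the fibronectin gene and 6 genes that carry such a symbol but encode no chain of these families (COL6A4P1, COL6A4P2, LAMB2P1, ITGB1BP1, ITGB1BP2 and ITGB3BP).

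A2058 is an established human melanoma cell line. The groups were carmustine-selected stem-like cells in hypoxia, the same cells in normoxia, parental cells in hypoxia and parental cells in normoxia, with 1 Illumina bead array each. Stem-like cells are a derivative that had been kept for 6 months under 100 uM carmustine, a DNA-alkylating drug, and all cultures grew in serum-containing DMEM. The sources used here do not say whether the derivative is clonal, nor how low or how long the hypoxia was. No difference below has a replicate check and none was tested.

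Collagens are triple-helical proteins that form fibrils, the networks of basement membranes or surface-anchored structures. Laminins are trimers of an alpha, a beta and a gamma chain and, with collagen IV, make up the sheet of the basement membrane. Integrins are pairs of an alpha and a beta chain that bind collagens, laminins or fibronectin outside the cell and the actin cytoskeleton inside it. In melanoma these genes are known for their part in the passage of tumour cells from the epidermis through the basement membrane into the dermis.

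Signals are given as normalized log2 levels after background correction. Detection means a detection p-value below 0.01, and the dimmest detected probe of each array had a level of 5.22 to 5.29. Where a gene was detected on only 1 side of a comparison, its other side was raised to that floor, which makes the fold a lower bound (at least N-fold). Higher and lower mean a fold of 2 or more, a rule of size and no test. The SD between log2 folds of detected probes of the same gene, over the whole array, was 0.30 for the cell states in normoxia, 0.28 for the cell states in hypoxia, 0.20 for hypoxia in parental cells and 0.23 for hypoxia in stem-like cells. That SD leaves out the error between arrays and cultures. Levels of different probes are not set against each other.

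Of the 82 member genes, 52 were detected on at least 1 array and 30 on all 4 arrays. The 30 that were detected on no array held 20 collagens, among them COL1A2, COL3A1, COL2A1, COL6A2, COL4A3 and COL4A4. COL1A1, which encodes the main chain of collagen I, was detected on the stem-like normoxia array alone, at 5.43. FN1, which encodes the adhesive glycoprotein fibronectin, had 3 probes and none was detected on any array. The brightest FN1 probe stood at 5.01 and 4.39 in stem-like hypoxia and normoxia, against 4.69 and 4.63 in parental hypoxia and normoxia. LAMA2, LAMB4, ITGA2B, ITGA8 and ITGB6 were not detected either. An undetected probe sets only an upper bound. Of 33 members with more than 1 probe, 10 had exactly 1 detected probe while their other probes were not detected, so a missing signal may belong to the probe.

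Detected probes numbered 16432 to 16945 per array, of 47315. Of 7 melanocyte markers 3 were detected on each stem-like array, against 6 on each parental array. PMEL, a melanosome protein gene, stood at 5.28 and 5.74 in stem-like hypoxia and normoxia, against 12.94 and 12.77 in parental hypoxia and normoxia. TYR, which encodes the pigment enzyme tyrosinase, was not detected in stem-like cells, against 11.31 and 11.26 in parental hypoxia and normoxia. SOX10, a lineage transcription factor gene, stood at 9.94 and 10.26 in stem-like hypoxia and normoxia, against 11.12 and 11.04 in parental hypoxia and normoxia. Collagens are also fibroblast genes, so 8 fibroblast markers were read. On each array 2 of the 8 were detected, and PDGFRA, PDGFRB, THY1, TCF21 and POSTN were detected on none. Their summed normalized signal was 311 and 324 in stem-like hypoxia and normoxia, against 912 and 772 in parental hypoxia and normoxia. Single markers went opposite ways. LUM was 3.14-fold lower in stem-like normoxia and 4.80-fold in hypoxia, while FAP, a surface protease gene, was detected on the stem-like arrays alone, at least 1.87-fold higher in normoxia and at least 2.53-fold in hypoxia. None of the 5 keratinocyte markers with a probe was detected. Leukocyte markers summed to 1053 and 1009 in stem-like hypoxia and normoxia, against 737 and 706 in parental hypoxia and normoxia, with CD14 and LYZ higher in stem-like normoxia. The 6 endothelial markers summed to 81.1 and 67.8 in stem-like hypoxia and normoxia, against 64.5 and 43.0 in parental hypoxia and normoxia. These sums include undetected probes. Only TEK was detected on the stem-like arrays, only VWF in parental hypoxia and none in parental normoxia. The part of other cell types in the results was not tested, and in such bulk samples fewer cells of a type and less RNA per cell cannot be told apart.

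The comparison of cell states asks how the carmustine-selected cells differ from the line they came from. Stem-like cells carried more RNA of several basement membrane chains, among them COL4A1, COL4A5, LAMA4 and LAMA5, and of the integrin alpha chains ITGA1, ITGA2 and ITGA3, while the laminin alpha chain gene LAMA1 was lower. LAMA5 was 11.3-fold higher in normoxia and 12.8-fold in hypoxia, and LAMA1 was 4.15-fold and 6.46-fold lower. In normoxia 18 of 50 tested members were higher and 1 lower, where 6.67% of 10758 genes were higher and 5.87% lower. In hypoxia 20 of 50 were higher and 3 lower, where 7.24% of 11000 genes were higher and 5.97% lower. The median log2 fold of tested members was 0.43 in normoxia and 0.85 in hypoxia, beside -0.01 and -0.00 over all genes tested.

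Of these calls, 8 in normoxia were higher by a bound, and 7 higher and 1 lower in hypoxia. A gene detected only where it is high had to differ, so the 30 members detected on all 4 arrays are given apart. Of them 25 had a log2 fold above 0 in normoxia and 25 in hypoxia, beside 48.0% and 49.1% of 9006 genes. In normoxia 10 of the 30 were higher and 1 lower, beside 5.31% and 5.11% of the 9006 genes. In hypoxia 11 were higher and 2 lower, beside 5.77% and 5.32%. The normoxia and hypoxia comparisons share no array. Of the 18 higher members in normoxia 15 were also higher in hypoxia, which is 83.3% of the first and 75.0% of the second list, beside 83.7% and 75.5% for all genes.

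**Figure D1:**
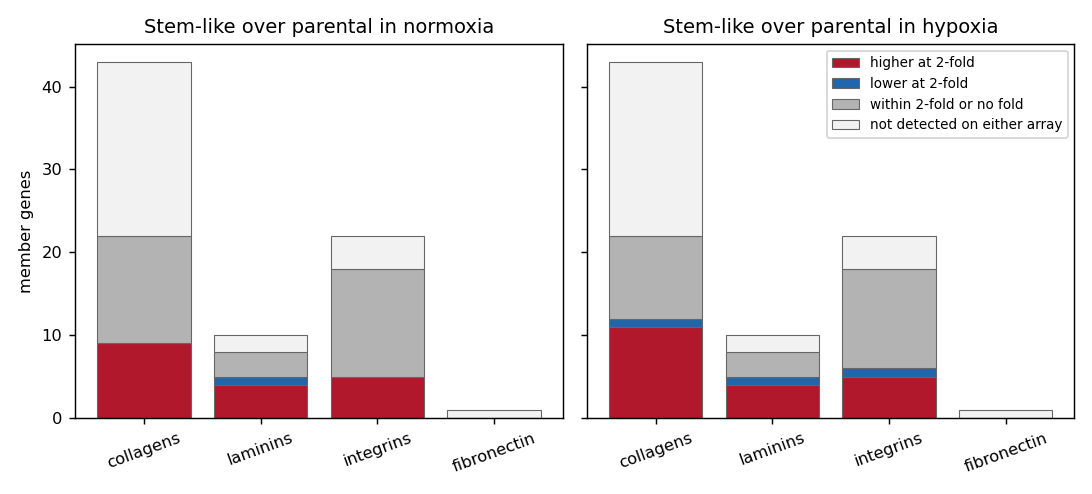
Number of member genes (y axis) in each family (x axis) that were higher or lower at 2-fold in stem-like over parental cells, lay within 2-fold or had no fold, or were detected on neither array, in normoxia (left) and hypoxia (right). Of 43 collagens, with 22 tested in each comparison, 9 were higher in normoxia and 11 in hypoxia. Over all genes tested 6.67% and 7.24% were higher. Fibronectin was detected on no array.

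Collagen IV, the network collagen of basement membranes, is built from chains of 6 genes. Of these 4 were detected, 3 were past 2-fold upward in normoxia and 4 in hypoxia, where 6.67% and 7.24% of all genes tested were. COL4A5, a chain gene that is mutated in Alport syndrome, stood at 8.53 and 8.18 in stem-like hypoxia and normoxia and was not detected in parental cells, at 4.45 and 4.47. That is at least 7.56-fold higher in normoxia and at least 9.71-fold in hypoxia. COL4A6 stood at 6.55 and 6.28 in stem-like hypoxia and normoxia and was not detected in parental hypoxia (4.40) or normoxia (4.54). Both genes were thus seen in stem-like cells alone. COL4A6 was at least 2.03-fold higher in normoxia and at least 2.46-fold in hypoxia. Each of the 2 genes rests on 1 detected probe, with 1 further probe of COL4A5 and 2 of COL4A6 not detected.

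COL4A1 and COL4A2 encode the chains of the common form of collagen IV. COL4A1 stood at 10.97 and 10.80 in stem-like hypoxia and normoxia, against 9.82 and 9.69 in parental hypoxia and normoxia. It was 2.16-fold higher in normoxia and 2.21-fold in hypoxia, and the oxygen conditions lay closer together than the cell states. COL4A2 stood at 8.02 and 7.64 in stem-like hypoxia and normoxia, against 6.88 and 7.12 in parental hypoxia and normoxia. It was 2.20-fold higher in hypoxia and stood at 1.43-fold in normoxia. The remaining chain genes, COL4A3 and COL4A4, were detected on no array.

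The collagen IV genes that were detected lie head to head as neighbours, COL4A1 with COL4A2 on chromosome 13 and COL4A6 with COL4A5 on chromosome X. In RefSeq's GRCh38.p14 annotation 126 bases separate the starts of the first pair and 379 those of the second. The stretch between the COL4A1 and COL4A2 starts (chr13:110307158-110307283, plus strand) and the 250 bases before the COL4A5 start (chrX:108439588-108439837, plus strand, all within the stretch between the COL4A6 and COL4A5 starts) are shown because both genes of a pair share them. Capitals mark matches on either strand to any of 5 motifs.
COL4A1 and COL4A2: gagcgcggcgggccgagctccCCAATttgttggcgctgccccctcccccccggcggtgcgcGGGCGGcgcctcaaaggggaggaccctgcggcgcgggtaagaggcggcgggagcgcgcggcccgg
COL4A5: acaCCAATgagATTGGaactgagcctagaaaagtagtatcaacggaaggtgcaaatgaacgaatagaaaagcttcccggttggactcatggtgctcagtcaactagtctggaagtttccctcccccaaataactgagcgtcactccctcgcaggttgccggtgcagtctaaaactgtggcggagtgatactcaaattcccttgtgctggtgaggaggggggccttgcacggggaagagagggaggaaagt
The motifs searched were the GC box GGGCGG, the CCAAT box CCAAT, the core of the hypoxia response element ACGTG, the AP-1 site TGANTCA and the M-box CATGTG, and matches of different motifs were counted separately where they overlap. The first stretch held 1 GC box and 1 CCAAT box and the COL4A5 stretch held 2 CCAAT boxes and no GC box. Their share of G and C was 80.2% and 51.2%. Promoter windows were given for 59 of the 82 member genes. In windows of 250 bases before a start, a GC box was found in 51.9% of 79 member windows, beside 42.6% of all 35116. A CCAAT box was found in 25.3% against 32.0%, a hypoxia core in 12.7% against 18.5%, an AP-1 site in 2.5% against 6.6% and an M-box in 5.1% against 9.4%. A match describes letters only.

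Among fibrillar collagens, COL11A2, known from cartilage, stood at 7.75 and 8.11 in stem-like hypoxia and normoxia and was not detected in parental hypoxia (4.90) or normoxia (4.83). COL11A2 was at least 7.18-fold higher in normoxia and at least 5.64-fold in hypoxia by 1 of its 3 probes, and the others were not detected. COL5A1, a chain of the collagen that nucleates fibrils, stood at 7.48 and 6.58 in stem-like hypoxia and normoxia and was not detected in parental cells, at 4.75 and 4.74. COL5A1 was at least 2.48-fold higher in normoxia and at least 4.68-fold in hypoxia. COL5A2, which encodes its partner chain, was likewise detected on the stem-like arrays alone, at 5.66 and 5.61, close to the floor. COL27A1 was detected at 5.60 in stem-like hypoxia and 5.71 in parental normoxia and not on the other arrays.

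COL7A1 encodes the collagen of the fibrils that anchor skin basement membrane to the dermis. It stood at 8.87 and 8.66 in stem-like hypoxia and normoxia, against 7.15 and 6.71 in parental hypoxia and normoxia. It was 3.86-fold higher in normoxia and 3.30-fold in hypoxia. COL8A1, a short-chain collagen of vessel walls and the cornea, stood at 7.45 on both stem-like arrays, against 5.39 and 6.28 in parental hypoxia and normoxia. It was 2.24-fold higher in normoxia and 4.15-fold in hypoxia. Its second probe was detected on the stem-like arrays alone and gave log2 differences of 0.77 and 1.12 without the floor.

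COL16A1, a collagen that attaches to fibrils, stood at 9.59 and 9.31 in stem-like hypoxia and normoxia, against 8.38 and 8.12 in parental hypoxia and normoxia. It was 2.29-fold higher in normoxia and 2.32-fold in hypoxia. COL18A1, the source of the fragment endostatin, stood at 7.63 and 7.48 in stem-like hypoxia and normoxia, against 6.52 and 6.75 in parental hypoxia and normoxia. It was 2.15-fold higher in hypoxia and stood at 1.66-fold in normoxia, by 1 of 2 probes.

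COL12A1, another fibril-associated collagen, stood at 6.40 and 5.74 in stem-like hypoxia and normoxia by its brighter probe. That probe was not detected in parental cells, and by it COL12A1 was at least 2.21-fold higher in hypoxia. The other probe was detected in stem-like hypoxia (5.60) and parental hypoxia (5.28) alone. Without the floor the 2 COL12A1 probes differed in hypoxia, with log2 differences of 1.74 and 0.32. COL6A1, a chain of the beaded filament collagen, stood at 5.88 and 6.34 in stem-like hypoxia and normoxia, against 5.49 in parental hypoxia and no detection in parental normoxia. It was at least 2.11-fold higher in normoxia and stood at 1.31-fold in hypoxia.

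The collagen that was lower was COL9A1, a cartilage collagen. It was not detected in stem-like hypoxia (4.30) or normoxia (4.33), against 6.27 and 6.2 in parental hypoxia and normoxia. It was at least 2.07-fold lower in hypoxia and at least 1.88-fold lower in normoxia, which does not reach 2-fold. Both bounds rest on 1 of its 4 probes, and the others were not detected. COL15A1, detected at 5.28 and 5.31 on the parental arrays alone, lay at the floor. COL9A3 and COL8A2, measured on all arrays, stayed within 2-fold in both comparisons. For COL8A2 the log2 folds were -0.32 in normoxia and -0.40 in hypoxia. Its other probe, detected in stem-like hypoxia alone, went the opposite way, with log2 differences of 0.32 and 0.51 without the floor. COL13A1, COL9A2 and COL6A3 were detected on the stem-like arrays alone, with bounds below 2-fold that leave the size of their folds unknown. COL13A1, a transmembrane collagen, was at least 1.25-fold higher in normoxia and at least 1.89-fold in hypoxia. COL20A1 was detected in stem-like hypoxia alone and has no fold in normoxia.

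**Figure D2:**
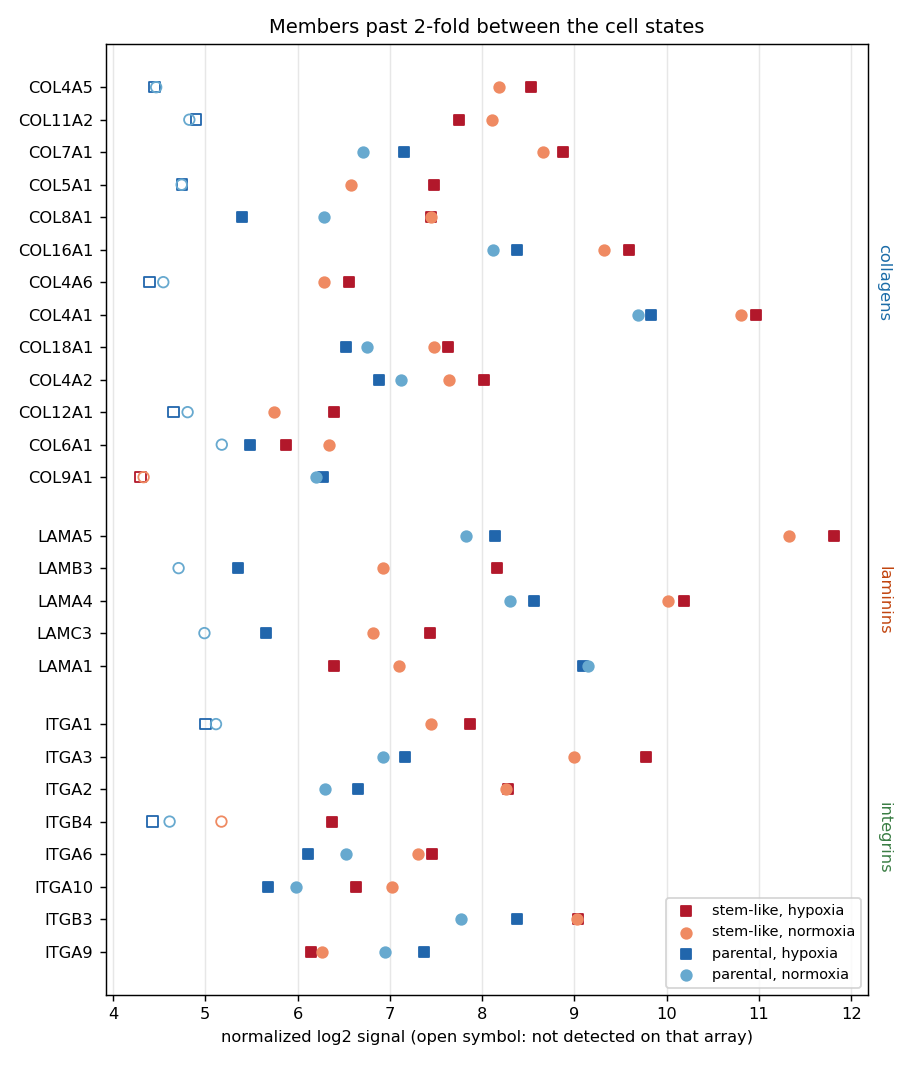
Normalized log2 signal (x axis) of the 26 members past 2-fold between the cell states in normoxia or hypoxia, 1 symbol per array; filled symbols are detected. For COL4A5, COL11A2 and ITGA1 both parental symbols are open, and for LAMA1 both stem-like arrays, at 6.40 and 7.10, lie below both parental arrays.

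Laminins showed the highest and the lowest cell state folds among the members detected on all arrays. Of 10 genes 8 were detected, 4 were higher and 1 lower in each oxygen condition. Over all genes tested 6.67% were higher and 5.87% lower in normoxia, and 7.24% and 5.97% in hypoxia. LAMA5, the alpha chain gene of most adult basement membranes, stood at 11.81 and 11.32 in stem-like hypoxia and normoxia, against 8.13 and 7.83 in parental hypoxia and normoxia. LAMA1, the alpha chain gene of early embryonic basement membranes, stood at 6.40 and 7.10 in stem-like hypoxia and normoxia, against 9.09 and 9.15 in parental hypoxia and normoxia. LAMA5 and LAMA1 thus went in opposite directions between the cell states. The second LAMA1 probe was detected on the parental arrays alone. Without the floor it gave log2 differences of -1.69 in normoxia and -2.05 in hypoxia.

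LAMA4, an alpha chain gene known from vessel walls, stood at 10.19 and 10.01 in stem-like hypoxia and normoxia, against 8.56 and 8.30 in parental hypoxia and normoxia. It was 3.26-fold higher in normoxia and 3.08-fold in hypoxia, and its second probe gave log2 folds of 1.48 and 1.43. LAMB3, a beta chain gene of the laminin that fixes the epidermis to its basement membrane, stood at 8.16 and 6.93 in stem-like hypoxia and normoxia. In parental cells it stood at 5.36 in hypoxia and was not detected in normoxia (4.71). Its log2 fold was 2.81 in hypoxia, and in normoxia it was at least 3.17-fold higher, by 1 of 3 probes.

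LAMC3, a gamma chain gene, stood at 7.44 and 6.82 in stem-like hypoxia and normoxia, against 5.66 in parental hypoxia and no detection in parental normoxia (4.99). It was 3.42-fold higher in hypoxia and at least 2.94-fold in normoxia. The beta and gamma chain genes LAMB1, LAMB2 and LAMC1 stayed within 2-fold. LAMC1 stood at 11.73 and 11.68 in stem-like hypoxia and normoxia, against 11.10 and 11.32 in parental hypoxia and normoxia. LAMB1 stood at 10.36 and 9.89 in stem-like hypoxia and normoxia, against 9.47 and 9.50 in parental hypoxia and normoxia. Their log2 folds were 0.36 and 0.39 in normoxia and 0.63 and 0.89 in hypoxia, and that of LAMB2 was 0.81 and 0.85.

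The promoter windows of LAMA5, with the highest cell state fold among members detected on all arrays, and LAMB3, with the highest measured fold of hypoxia over normoxia, are the 250 bases before the RefSeq start in GRCh38.p14. They lie on the minus strand at chr20:62367313-62367562 and chr1:209652426-209652675, and capitals again mark matches to the 5 motifs. LAMB3 has further annotated starts, and the one listed first in the table is shown.
LAMA5: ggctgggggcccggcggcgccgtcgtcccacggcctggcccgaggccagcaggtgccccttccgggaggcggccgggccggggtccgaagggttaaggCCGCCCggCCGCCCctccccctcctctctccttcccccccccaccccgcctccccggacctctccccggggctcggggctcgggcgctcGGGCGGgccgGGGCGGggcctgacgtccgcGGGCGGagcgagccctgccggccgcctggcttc
LAMB3: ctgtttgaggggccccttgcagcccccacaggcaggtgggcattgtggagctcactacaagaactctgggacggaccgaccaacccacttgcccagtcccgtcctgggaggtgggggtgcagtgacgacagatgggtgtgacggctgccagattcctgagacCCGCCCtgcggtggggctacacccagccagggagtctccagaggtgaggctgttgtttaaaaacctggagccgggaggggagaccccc
The LAMA5 window held 5 GC boxes at a G and C share of 82.8%. The LAMB3 window held 1 GC box at 64.0%. Neither window held the letters of the hypoxia core, the AP-1 site, the M-box or the CCAAT box.

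**Figure D3:**
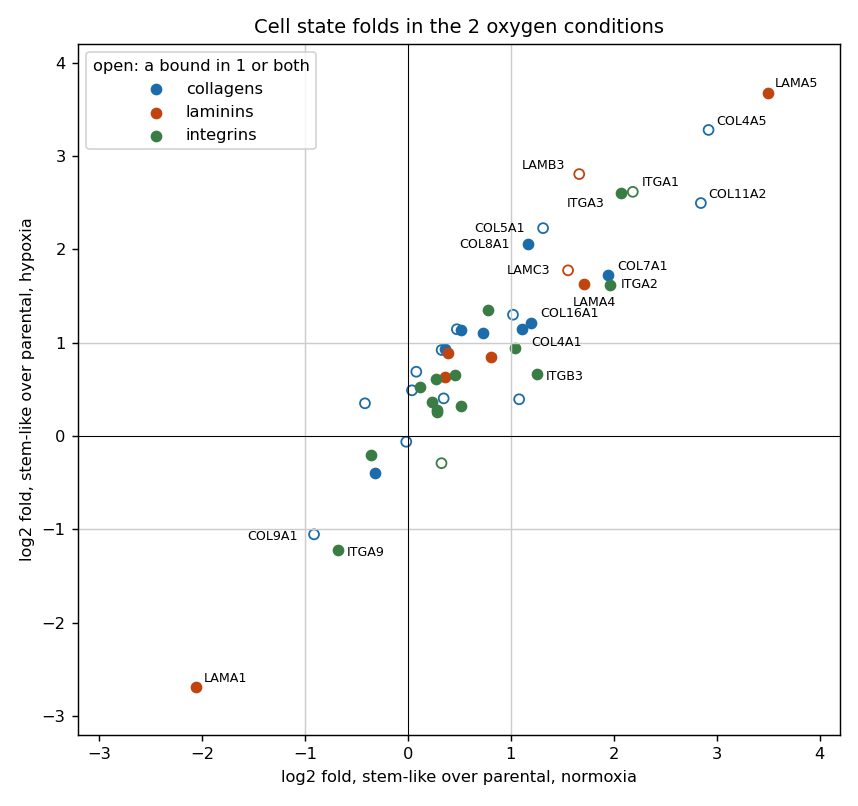
Log2 fold of stem-like over parental cells in normoxia (x axis) and in hypoxia (y axis) for the 45 collagen, laminin and integrin chains with a fold in both; open points are bounds in either comparison and grey lines mark 2-fold. LAMA5 lies at 3.49 and 3.68 and LAMA1 at -2.05 and -2.69, and COL27A1 and ITGA11, both by bounds, have opposite signs.

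Of 4 detected integrin alpha chains that bind collagen, 3 were higher in stem-like cells in normoxia and 2 in hypoxia. Of laminin-binding alpha chains 1 of 3 was higher in normoxia and 2 of 2 in hypoxia, and ITGA5 and ITGAV, which bind fibronectin or vitronectin, stayed within 2-fold. Over all genes tested 6.67% were higher in normoxia and 7.24% in hypoxia. ITGA1, which pairs with ITGB1 to bind collagen, stood at 7.87 and 7.45 in stem-like hypoxia and normoxia and was not detected in parental hypoxia (5.00) or normoxia (5.12). ITGA1 was at least 4.54-fold higher in normoxia and at least 6.13-fold in hypoxia. ITGA2, the alpha chain of another collagen receptor, stood at 8.28 and 8.25 in stem-like hypoxia and normoxia, against 6.66 and 6.29 in parental hypoxia and normoxia. It was 3.89-fold higher in normoxia and 3.08-fold in hypoxia. ITGA10, a receptor chain for cartilage collagen, stood at 6.63 and 7.03 in stem-like hypoxia and normoxia, against 5.68 and 5.99 in parental hypoxia and normoxia. It was 2.06-fold higher in normoxia and stood at 1.93-fold in hypoxia. ITGA11 was detected at 5.59 in stem-like normoxia and 5.51 in parental hypoxia alone.

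ITGA3, a receptor chain for laminins that carry the LAMA5 and LAMB3 products, stood at 9.77 and 8.99 in stem-like hypoxia and normoxia, against 7.16 and 6.92 in parental hypoxia and normoxia. It was 4.19-fold higher in normoxia and 6.10-fold in hypoxia by 1 of 2 probes. ITGA6, the other main laminin receptor chain, stood at 7.46 and 7.31 in stem-like hypoxia and normoxia, against 6.11 and 6.52 in parental hypoxia and normoxia. It was 2.55-fold higher in hypoxia and stood at 1.72-fold in normoxia, by 1 of 3 probes. ITGA7, near the floor, had a log2 fold of 0.31 in normoxia and was detected on neither array in hypoxia.

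ITGA5, the classical fibronectin receptor chain, had cell state log2 folds of 0.12 in normoxia and 0.52 in hypoxia. ITGAV, the alpha chain shared by vitronectin receptors, stood at 9.14 and 8.88 in stem-like hypoxia and normoxia, against 9.35 and 9.24 in parental hypoxia and normoxia. Its log2 folds were -0.36 and -0.21. ITGA9, a receptor chain for tenascin-C among others, stood at 6.15 and 6.26 in stem-like hypoxia and normoxia, against 7.37 and 6.94 in parental hypoxia and normoxia. It was 2.33-fold lower in hypoxia and 1.60-fold lower in normoxia, the second value within 2-fold. ITGA4 had log2 folds of 0.28 in both, and ITGAE, known from T cells, of 0.23 and 0.37.

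Of detected beta chain genes 1 of 6 was higher in normoxia and 1 of 7 in hypoxia, where 6.67% and 7.24% of all genes tested were. Their median log2 folds were 0.37 and 0.63, beside 0.32 and 0.52 for alpha chain genes. ITGB1, the partner of most of these alpha chains, stood at 12.23 and 12.11 in stem-like hypoxia and normoxia, against 11.97 and 11.83 in parental hypoxia and normoxia. Its log2 folds were 0.28 in normoxia and 0.26 in hypoxia, and those of ITGB5 0.28 and 0.61. ITGB3, which pairs with ITGAV and is known for melanoma that grows into the dermis, stood at 9.04 and 9.02 in stem-like hypoxia and normoxia, against 8.37 and 7.77 in parental hypoxia and normoxia. It was 2.38-fold higher in normoxia and stood at 1.58-fold in hypoxia.

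ITGB4, the partner of ITGA6 in hemidesmosomes, was detected in stem-like hypoxia alone, at 6.37. It was not detected in stem-like normoxia (5.17) or in parental hypoxia (4.43) and normoxia (4.61). It was at least 2.17-fold higher in hypoxia by 1 of 4 probes. The beta chain gene of leukocyte integrins, ITGB2, had log2 folds of 0.51 and 0.32 by its brighter probe. Its other probe gave 0.04 in normoxia and was not detected in parental hypoxia. In hypoxia the log2 difference of that probe without the floor was 1.18. ITGB8 had log2 folds of 0.46 and 0.66 and ITGB7 lay at the floor. The associated genes ITGB1BP1 and ITGB3BP, which are no chains, had log2 folds between -0.50 and 0.15.

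The folds depend on background correction and scaling. Of the calls in normoxia 8 of 19 stayed past 2-fold under all of the alternatives tried, namely COL4A5, COL7A1, COL11A2, LAMA1, LAMA4, LAMA5, ITGA2 and ITGA3. In hypoxia 9 of 23 did so, namely COL4A5, COL7A1, COL11A2, LAMA1, LAMA4, LAMA5, LAMB3, ITGA1 and ITGA3. All 19 and 23 calls kept their sign under each alternative. Median scaling moved the median of all genes to -0.21 in normoxia and -0.12 in hypoxia, with 546 genes higher and 964 lower in normoxia in place of 718 and 632. Relative to that shift the medians in normoxia were 0.56 for collagens, 1.23 for laminins and 0.47 for integrins, beside 0.51, 1.20 and 0.33 with quantile normalization. Taken the same way, they were smaller, at 0.25, 0.53 and 0.25, with background left in and 0.23, 0.48 and 0.24 in the authors' values. With no detection filter they were 0.11, 0.60 and 0.39.

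The comparison of hypoxia with normoxia asks how oxygen bears on these genes within each cell state. Few members passed 2-fold. Among 50 members tested in stem-like cells, LAMB3 and ITGB4 were higher (2 members) and none was lower, where 0.491% of 10595 genes were higher and 0.189% lower. None of 38 members tested in parental cells passed 2-fold, where 0.383% of 10442 genes were higher and 0.0766% lower. The median log2 fold of tested members was 0.18 in stem-like cells and 0.10 in parental cells, beside 0.01 and -0.00 over all genes. Of the 30 members detected on all arrays, 24 had a log2 fold above 0 in stem-like cells and 17 in parental cells, beside 50% and 49.2% of 9006 genes. None of the 30 passed 2-fold, where in stem-like cells 0.3% of the 9006 genes were higher and 0.167% lower, and in parental cells 0.355% were higher and 0.0777% lower.

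LAMB3 was 2.35-fold higher in stem-like cells, at 8.16 in hypoxia against 6.93 in normoxia. ITGB4 was at least 2.12-fold higher. In parental cells LAMB3 was at least 1.07-fold higher and ITGB4 was detected in neither condition. Neither gene passed 2-fold in stem-like cells once background correction was left out or the authors' normalized table was used.

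The next highest log2 folds in stem-like hypoxia were those of ITGA5 at 0.93, COL5A1 at 0.90 and ITGA3 at 0.78. ITGA5 stood at 8.71 in stem-like hypoxia, against 7.78 in stem-like normoxia, and at 8.19 in parental hypoxia, against 7.67 in parental normoxia. It was thus above the normoxia array in both cell states, with a log2 fold of 0.52 in parental cells. The other highest log2 folds in parental cells were those of ITGB3 at 0.60, ITGB2 at 0.48 and COL7A1 at 0.44. The other ITGB2 probe went the opposite way in parental cells, with a log2 difference of -0.81, and was not detected in parental hypoxia. Among members detected in both conditions, the lowest log2 folds in stem-like cells were those of LAMA1 at -0.70, COL6A1 at -0.46, ITGA10 at -0.40 and COL11A2 at -0.36. In parental cells they were those of COL8A1 at -0.89, COL9A3 at -0.54, ITGA6 at -0.42 and ITGAE at -0.33. The second COL8A1 probe, not detected in parental cells, gave a log2 difference of -0.09 there.

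**Figure D4:**
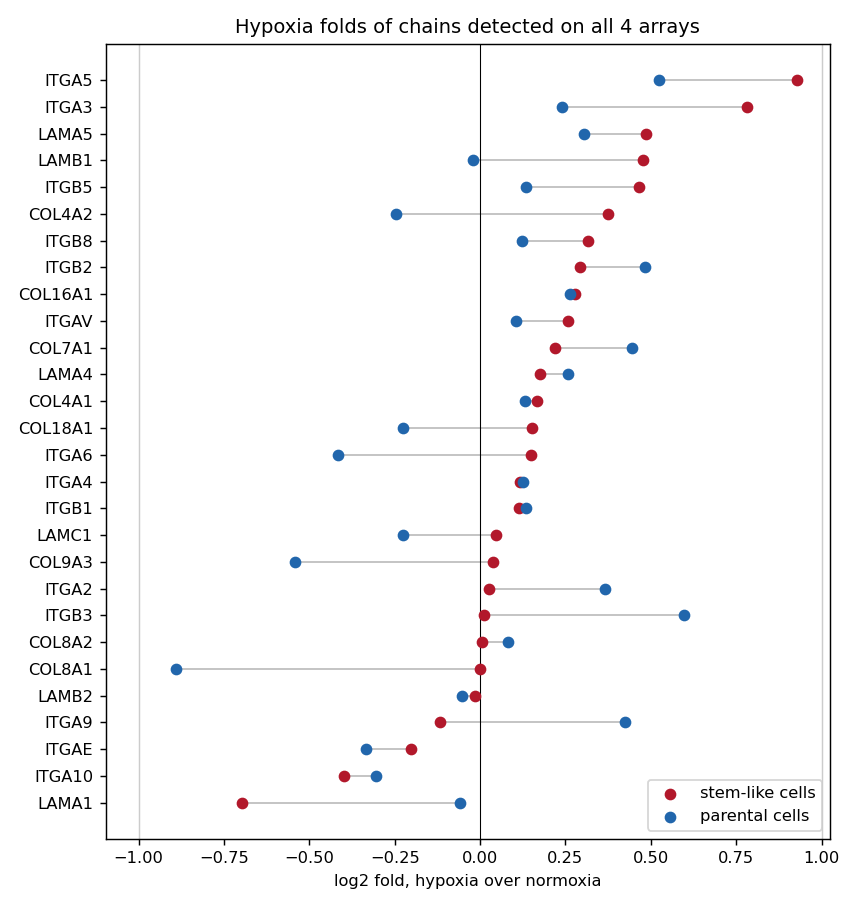
Log2 fold of hypoxia over normoxia (x axis) for the 28 chains detected on all 4 arrays, in stem-like cells (red) and parental cells (blue), ordered by the fold in stem-like cells. All points lie within 2-fold, from -0.89 for COL8A1 in parental cells to 0.93 for ITGA5 in stem-like cells.

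The difference between these hypoxia folds, stem-like minus parental, had a median of 0.10 and an SD of 0.37 over the 30 members, beside 0.00 and 0.31 over 9006 genes. None of the 30 reached 1 in size, where 0.322% of genes did so upward and 0.344% downward. The highest differences were 0.89 for COL8A1, 0.62 for COL4A2 and 0.58 for COL9A3. The lowest were -0.64 for LAMA1, -0.59 for ITGB3 and -0.54 for ITGA9. COL8A1 stood level in stem-like cells, with 7.45 in hypoxia and in normoxia, against 5.39 in parental hypoxia and 6.28 in parental normoxia. ITGB3 likewise stood level in stem-like cells, at 9.04 and 9.02, against 8.37 and 7.77 in parental hypoxia and normoxia. The parental hypoxia level of COL8A1 lay near that array's floor of 5.25. Its second probe, not detected in parental cells, gave smaller log2 differences without the floor, 0.26 in stem-like and -0.09 in parental cells.

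Other matrix genes were read beside the members, and their counts stand against the shares over all genes of 6.67% higher and 5.87% lower in normoxia and 7.24% and 5.97% in hypoxia. Stem-like cells in normoxia had 7 higher and 2 lower of 22 tested genes of other matrix proteins, and in hypoxia 9 higher and 4 lower of 23. EFEMP1, a fibulin gene, was at least 8.93-fold higher in normoxia and EFEMP2, which serves elastic fibre assembly, at least 5.24-fold. The matricellular genes THBS1 and TNC were 5.22-fold and 3.05-fold higher in normoxia. In hypoxia EMILIN1, an elastic fibre gene, was 4.02-fold higher and THBS1 8.22-fold. The lower genes in normoxia were ECM1 at 4.84-fold and the proteoglycan gene LUM at 3.14-fold, and in hypoxia FBLN5 at 3.57-fold, DCN by at least 2.28-fold and again LUM and ECM1. The list's median log2 fold, bounds included, was 0.56 in normoxia and 0.37 in hypoxia. Over the 16 and 17 genes detected on both arrays of the comparison it was 0.68 and 0.70.

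Genes that handle collagen in the secretory path were mostly within 2-fold, with 2 of 13 higher in normoxia, 3 of 15 in hypoxia and none lower. SERPINH1, the collagen chaperone, stood at 10.26 and 9.92 in stem-like hypoxia and normoxia, against 8.82 and 8.49 in parental hypoxia and normoxia, and was 2.70-fold higher in normoxia. PCOLCE, which enhances the trimming of procollagen, was 3.34-fold higher in normoxia and 2.77-fold in hypoxia. P3H3, a prolyl hydroxylase family gene, was just past 2-fold in hypoxia.

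Inside the cell, genes of the integrin adhesion complex had median log2 folds of 0.08 in normoxia and 0.17 in hypoxia. Of 24 tested 2 were higher and 1 lower in normoxia, near the shares over all genes of 6.67% and 5.87%. In hypoxia 3 were higher and 1 lower, where 7.24% and 5.97% of all genes were. FERMT1, a kindlin that activates integrins, was at least 3.55-fold higher in normoxia and at least 3.79-fold in hypoxia. ZYX, which encodes the adhesion protein zyxin, was 2.77-fold and 3.18-fold higher, and PXN, for the scaffold paxillin, 2.12-fold in hypoxia. KANK1, which encodes a protein at the rim of adhesions, was 2.46-fold and 2.51-fold lower. The kinase gene PTK2, also known as FAK, had log2 folds of 0.22 and 0.38 and the integrin-linked kinase gene ILK of -0.41 and -0.48.

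Of other matrix receptor genes 1 of 11 was higher in normoxia and 3 of 12 in hypoxia, with none lower and median log2 folds of 0.38 and 0.50. The single higher gene in normoxia is near the share over all genes, 6.67%. The syndecan gene SDC2 was 2.63-fold higher in normoxia and 2.32-fold in hypoxia. In hypoxia SDC4, also a syndecan, was 2.31-fold higher and CSPG4, a melanoma surface proteoglycan, 2.17-fold. In none of these 4 lists did a gene pass 2-fold between hypoxia and normoxia in either cell state.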

How the data were processed

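RNA from 4 cultures was read on Illumina bead arrays, and the labels give their groups. Per the file headers, the authors' non-normalized table holds mean bead intensity per probe, on a linear scale, with a detection p-value. The authors' further deposited table holds normalized intensity with like quantiles on all arrays, judged from the values. How the authors scanned and normalized is not stated by labels or headers. In the first of these, 98.0% of identifiers stood up to 8 lines away from their values, with 47323 lines for 47315 identifiers. Lines were realigned by their values to the further table along 1 ordered path, which raised the Spearman rho of the parental normoxia array with it from 0.015 to 1.0, and 8 lines were not used. This step was chosen once the values had been seen.

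Normalization of intensity used neqc from limma 3.58.1 under R 4.3.3 (normexp with background inferred from detection p-values, offset 16, quantile, log2). The realignment and the normalization were tested on simulated data. The probe with the highest mean stands for a gene. Of 47315 probes, 30112 had 1 symbol, 8 several and 17195 none; 30073 of the first kind matched the RefSeq table of GRCh38.p14. With 1 array per group there is no test and the number of arrays limits the precision. Dim folds shrink toward 1 because of the offset. The members, lists and rules were chosen with earlier results of these data known. Named are members past 2-fold between cell states, the 4 highest and 4 lowest hypoxia folds, the 3 highest and 3 lowest differences of hypoxia folds, 3 bright members per family, FN1, and up to 4 genes per list and cell state comparison; PTK2, ILK and further members were named after their values were seen. No search for near-identical gene copies was made. The alternatives tried were background correction, the authors' table, median scaling, the detection filter, the mean of detected probes and a threshold of 1.5-fold.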

Additional observations from a re-analysis of the deposited data

Results flagged for a closer look

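COL4A2 is singled out because hypoxia went with a higher level in stem-like cells and a lower level in parental cells, each by more than the between-probe SD of its comparison. The log2 folds were 0.37 in stem-like cells and -0.25 in parental cells, a difference of 0.62. Each fold rests on 1 probe and on 1 array per condition, and the difference was not tested. Only members were searched for this pattern, and its share over all genes was not computed. Its head-to-head neighbour COL4A1 had log2 folds of 0.17 and 0.13.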

How the results depend on the processing

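Counts past 2-fold moved with background correction, the choice of table, scaling and the threshold. In normoxia the 18 higher members numbered 9 if background was left in, 8 in the authors' values and 11 with median scaling. The count over all genes went with them, 718 higher becoming 344, 316 and 546. The 1 lower member became 2 with a detection p-value under 0.05, 2 with no detection filter and 3 at 1.5-fold. Over all genes the 632 lower became 682 and 740 under the 2 filter settings. In hypoxia the 20 higher numbered 12 if background was left in and 9 in the authors' values, where over all genes 796 became 372 and 339. The 3 lower became 1 under each, where over all genes 657 became 284 and 263. The median cell state log2 fold in hypoxia, 0.85, was 0.41 with background left in, 0.38 in the authors' values and 0.32 if undetected genes were kept. Of the hypoxia comparisons, the 2 members higher in stem-like cells numbered 0 with background left in, 0 in the authors' values and 8 at 1.5-fold, where 1 was lower. Over all genes the 52 higher in stem-like cells became 12 with background left in and 10 in the authors' values. No share over all genes was computed at 1.5-fold. In parental cells 1 was higher and 1 lower at 1.5-fold, and the median of 0.10 was -0.01 with no detection filter. For the difference of hypoxia folds 1 member passed 1 upward with median scaling, and 1 upward and 1 downward with no detection filter. For this difference the shares over all genes were not computed under the alternatives. Of the single-gene values under alternatives, 156 of 204 in normoxia and 149 of 210 in hypoxia moved by less than the between-probe SD. Part of these could not move, so the counts overstate stability. A changed detection filter leaves a fold detected on both arrays as it was. The mean of detected probes does the same for genes with 1 detected probe. The cause of these shifts was not tested. Replicates could not be paired because each group has 1 array and the labels carry no replicate numbers to pair by. No array could be left out because each group has 1 array. A fit with oxygen condition as a block, which would take the difference between hypoxia responses as error, was not run. Levels near the floor of 5.22 to 5.29 limit what dim members can show.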

Other observations

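By the probe that stands for each gene, 11 of the 82 members were detected on both stem-like arrays and on neither parental array. They were COL4A5, COL4A6, COL5A1, COL5A2, COL6A3, COL9A2, COL11A2, COL12A1, COL13A1, ITGA1 and ITGB7. The other COL12A1 probe was detected in parental hypoxia. The opposite pattern was seen in 2 members, COL15A1 and COL9A1. Among all 20045 genes these patterns held for 476 and 350. Some memberships hang on the cut of 0.01. COL6A3 had a detection p-value of 0.0091 in stem-like normoxia, against 0.017 and 0.019 in parental hypoxia and normoxia. Parental detection p-values in hypoxia and normoxia were 0.044 and 0.017 for COL9A2 and 0.038 and 0.022 for ITGA1. Those of ITGB7 in stem-like hypoxia and normoxia were 0.0091 and 0.0078. COL4A5 lay far from the cut, at 0.60 and 0.59 in parental hypoxia and normoxia.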
